A study of Mus musculus with 23 samples.

Results

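Imprinted genes are transcribed mainly or only from the copy inherited from one parent, and most of them sit in clusters that share a control region whose DNA methylation differs between the parental chromosomes. The 44 mouse genes followed here were taken from a list of imprinted genes and grouped by cluster. The only measured value in the rule was a minimum count, but the list was drawn up with earlier results of these data known. Of these, 42 reached at least 10 counts in at least 1 of 23 libraries, out of 53607 gene rows in all, and all 42 passed the filter on low counts that left 20372 genes for testing. The 2 that were dropped were Rtl1, a retrotransposon-derived gene of the Dlk1-Dio3 cluster with at most 5 counts in any library, and Rasgrf1, an exchange factor for RAS with at most 6. Airn, which reached at most 27 counts, was the kept gene closest to that limit.

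As background, the paternally expressed genes of such clusters include growth promoters such as Igf2, and the maternally expressed ones include growth restrainers such as the kinase inhibitor Cdkn1c. Clusters commonly hold a long noncoding RNA, such as H19, Airn, Kcnq1ot1 or Meg3, that is transcribed from the opposite parental copy to its protein-coding neighbours. Many of these genes are strongly transcribed in the placenta and the fetus and are known to vary in level and in methylation among cultured embryonic stem cells. Counts per gene do not separate the parental copies, so every value below is the sum over both, and the parental labels are textbook knowledge rather than measurements.

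All libraries came from mouse embryonic stem cells of the Raslox/lox background, with H-Ras-/- and N-Ras-/- alleles, a further floxed RAS allele and the Ubiq-CreERT2 transgene, a tamoxifen-inducible recombinase expressed broadly. ERF is a repressor of the ETS family that the kinase ERK inactivates, and the lines are labelled ERF wild type or ERF knockout. Cells grew in 2iL, which contains LIF with inhibitors of the kinases MEK and GSK3, or for 48 h in FA, with 12 ng/ml FGF2, 20 ng/ml Activin A and 1% KOSR on fibronectin, which takes naive cells toward an epiblast-like state. In the libraries labelled RAS deleted the cells had also received 4-hydroxytamoxifen for 6 days, so drug and deletion cannot be told apart. The 8 groups were thus ERF wild type and ERF knockout, each with RAS present and RAS deleted, in 2iL and in FA, with n = 3 libraries per group. The exception was the FA group of ERF wild type cells that kept RAS, with n = 2. The combination of ERF wild type and RAS present is called the reference line below. The labels do not say whether libraries of a group came from separate cultures or clones, so p-values measure the spread between these libraries, which may be technical.

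Library totals lay between 16.2 and 29.9 M counts, and levels are given as CPM, counts per M counts of the library after scaling. Erf transcript was not called lower in cells labelled ERF knockout: with RAS present in 2iL it stood at 116 ± 17.5 CPM (SD, n = 3) against 77.6 ± 7.66 (SD, n = 3) with ERF wild type, and the 3 other log2 differences were 0.79 (2iL, RAS deleted), -0.14 (FA, RAS present) and -0.20 (FA, RAS deleted). The ERF state is therefore given as labelled in every comparison. Hras and Nras, which the genotype gives as null, had 188 to 743 and 95 to 1121 counts in every library. Pou5f1, a defining pluripotency gene, was present in every library at 272 to 718 CPM, and a list of 8 feeder fibroblast genes summed to 4.42 to 22.9 CPM. Within that list Postn and Lum were at 0 counts in 22 of 23 libraries, Col3a1 in 15, Dcn in 13 and Col1a2 in 2, whereas Pdgfrb (1.55 to 18.1 CPM), Thy1 (0.892 to 4.76 CPM) and Col1a1 (0.755 to 3.55 CPM) were counted in every library. Genes of chromosome 8 were raised by 0.14 to 0.221 log2 units in the replicate 1 library of all 4 groups with ERF wild type, against -0.14 to 0.034 in the other 19 libraries. No imprinted gene followed here lies on chromosome 8, and the 10 chromosomes that carry one deviated by -0.079 to 0.109 in any library. Chromosome 11, which carries Grb10, Zrsr1 and Commd1, had a similar pattern in the groups labelled ERF knockout. In their replicate 1 libraries it stood at 0.109 and 0.057 in 2iL (RAS present and deleted) and 0.086 and 0.04 in FA. The other libraries of these groups had -0.063 to -0.015. The part of this shift in the results was not tested.

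Some sequences of the genes that carry the results are shown first. The promoter windows are from RefSeq, GRCm38.p6, run from 250 bases before to 50 bases after an annotated start and are written 5′ to 3′ on the gene's strand. Capitals mark TGCCGC, the hexamer bound by the imprint-protecting protein ZFP57 in its methylated form, on either strand (GCGGCA is its reverse complement). Plagl1 and Phlda2 are shown because they went in opposite directions with RAS deletion in FA under ERF wild type, Mest and Nnat because they rose in FA in all 4 lines, and Peg3 because it was lower under the ERF knockout label in all 4 comparisons.
Plagl1 (chr10:13090582-13090881, plus strand): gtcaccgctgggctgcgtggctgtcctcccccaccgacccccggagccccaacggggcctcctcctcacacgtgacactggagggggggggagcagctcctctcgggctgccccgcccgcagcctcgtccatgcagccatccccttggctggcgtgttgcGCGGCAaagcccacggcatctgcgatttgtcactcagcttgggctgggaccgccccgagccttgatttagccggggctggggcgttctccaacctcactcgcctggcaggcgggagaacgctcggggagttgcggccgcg
Phlda2 (chr7:143502475-143502774, minus strand): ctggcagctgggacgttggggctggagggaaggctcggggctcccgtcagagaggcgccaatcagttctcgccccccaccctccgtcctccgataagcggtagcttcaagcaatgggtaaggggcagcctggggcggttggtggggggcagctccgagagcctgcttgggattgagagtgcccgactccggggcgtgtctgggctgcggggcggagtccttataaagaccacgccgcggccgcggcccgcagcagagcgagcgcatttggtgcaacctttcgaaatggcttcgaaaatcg
Mest (chr6:30737800-30738099, plus strand): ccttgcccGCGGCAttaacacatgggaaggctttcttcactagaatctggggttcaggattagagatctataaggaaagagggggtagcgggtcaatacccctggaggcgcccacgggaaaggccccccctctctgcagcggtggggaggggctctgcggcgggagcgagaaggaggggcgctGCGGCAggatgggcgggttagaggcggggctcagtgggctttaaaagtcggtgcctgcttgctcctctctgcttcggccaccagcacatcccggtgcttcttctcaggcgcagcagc
Nnat (chr2:157559828-157560127, plus strand): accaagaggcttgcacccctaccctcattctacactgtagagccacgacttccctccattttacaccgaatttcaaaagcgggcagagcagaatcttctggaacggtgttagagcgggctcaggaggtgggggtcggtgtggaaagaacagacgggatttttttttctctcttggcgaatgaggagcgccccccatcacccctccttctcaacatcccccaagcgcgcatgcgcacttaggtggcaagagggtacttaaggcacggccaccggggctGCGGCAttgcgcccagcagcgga
Peg3 (chr7:6730370-6730669, minus strand): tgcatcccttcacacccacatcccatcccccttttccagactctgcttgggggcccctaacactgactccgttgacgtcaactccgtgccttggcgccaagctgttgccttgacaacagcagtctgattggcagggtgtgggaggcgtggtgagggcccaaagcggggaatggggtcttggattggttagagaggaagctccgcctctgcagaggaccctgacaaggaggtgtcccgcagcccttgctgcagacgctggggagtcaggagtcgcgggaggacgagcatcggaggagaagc

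The Peg3 window overlaps that of its divergent neighbour Usp29, which spans chr7:6730333-6730632 on the plus strand. RefSeq windows were matched for 35 of the members, with 51 windows in all. Their median content was 15 CG dinucleotides, against 7 over all 32851 promoter windows of the same length. The hexamer TGCCGC occurred on either strand in 25.5% of the members' windows and in 11.6% of all windows, and CCGGAA, a core of ETS binding sites, in 7.84% and 14.9%. The printed windows of Phlda2 and Peg3 hold no match to the hexamer, and neither does the window of another annotated start of Mest (chr6:30733256-30733555), which is not printed. These are matches of letters only.

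A few transcripts also carry microRNAs, which were not measured here. Mirg is the annotated host of 26 mature microRNAs, Rian of 6, Meg3 of 3, and H19, Igf2, Usp29 and Mest of 2 each. The last 4 hosts were called higher in FA in all 4 lines, and the pairs within H19 and Mest are printed as examples of these. Capitals mark the seed, bases 2 to 8, and the 4 seeds differ from each other.
mmu-miR-675-5p, within H19: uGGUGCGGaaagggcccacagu
mmu-miR-675-3p, within H19: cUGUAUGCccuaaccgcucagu
mmu-miR-335-5p, within Mest: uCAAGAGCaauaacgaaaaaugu
mmu-miR-335-3p, within Mest: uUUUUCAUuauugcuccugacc

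Levels differed widely among the members. In TPM, the deposited unit that accounts for transcript length, the noncoding RNAs Rian and Meg3 had the highest medians over 23 libraries, 297 and 179, followed by Cd81, a tetraspanin, at 124. Igf2, Dio3, Nnat and H19 had medians of 1.27, 1.32, 1.36 and 0.816 TPM. The widest range of group means belonged to H19, whose highest group stood 597-fold above its lowest in CPM, followed by Peg10 at 64.0-fold and Nnat at 45.2-fold. Mcts2, an intronless gene within H13, had the narrowest range, 1.19-fold. The heatmap of all kept genes over 23 libraries gives the whole pattern.

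**Figure D1:**
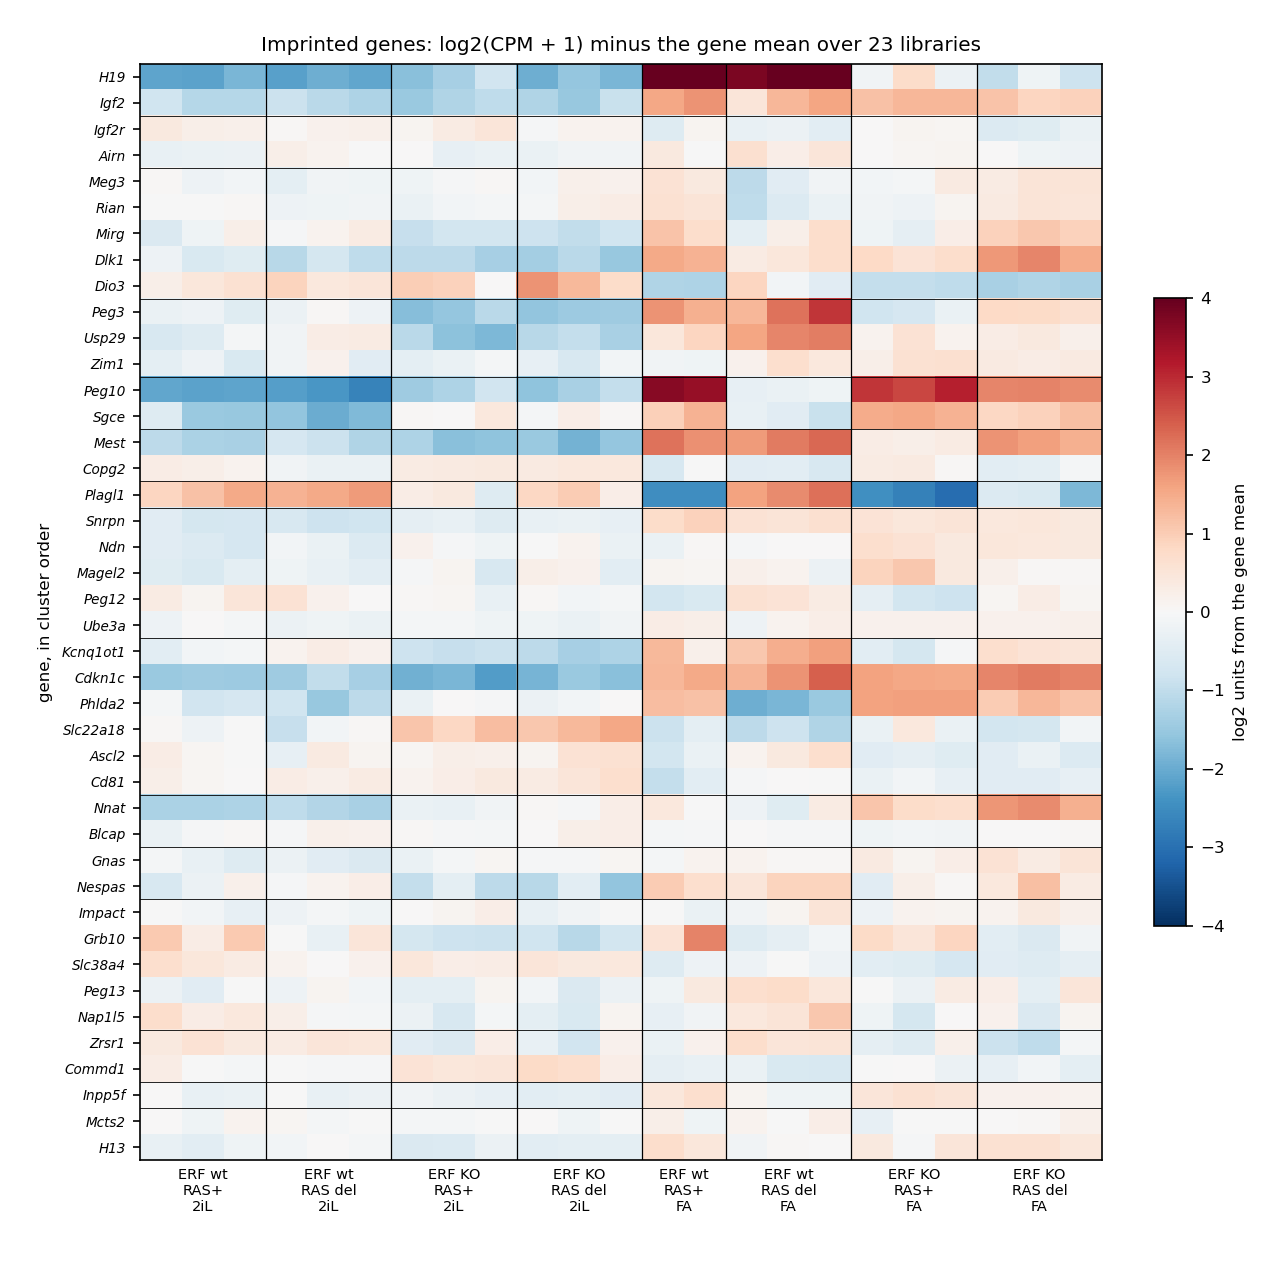
Level of the 42 kept imprinted genes (rows, in cluster order) in each of 23 libraries (columns, by group), as log2(CPM + 1) minus the gene's mean over the 23 libraries, with the colour scale ending at -4 and 4. Cdkn1c is red in all FA columns and Igf2 in most of them, and Mest is red in the FA columns other than those of the knockout label with RAS present, where it is near white. H19 is deep red in the FA columns of ERF wild type and near white or pale in those of the knockout label, Peg10 is red in the FA groups other than ERF wild type with RAS deleted, and Plagl1 is blue in 3 of the 4 FA groups.

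The first comparison asked how the members differed between FA and 2iL in each line. In the reference line 20 of 42 members were called (Benjamini-Hochberg adjusted p under 0.05 over all 20372 genes, edgeR quasi-likelihood test, and at least 2-fold), 17 higher and 3 lower in FA, where 24% of all genes tested were called, 13.2% higher and 10.8% lower. With RAS deleted under ERF wild type 14 were called, 12 higher and 2 lower, against 16.5% of all genes (9.96% higher and 6.59% lower). Under the ERF knockout label 16 were called with RAS present, 13 higher and 3 lower, against 19.7% (12.3% and 7.46%), and 20 in the RAS deleted line, 16 higher and 4 lower, against 24.9% (14.5% and 10.4%). The median log2 change of the members was 0.57, 0.37, 0.56 and 0.52 in these 4 comparisons, where that of all genes lay between 0.01 and 0.03. The members called made up 47.6%, 33.3%, 38.1% and 47.6% of the 42, in each case more than the share of all genes. With replicate number entered as a block, where the numbers paired the libraries, Peg13 (1) and Nap1l5 (1.28) were called in addition with ERF wild type and RAS deleted, and Slc22a18 did not pass the count filter of that fit, which left 15 calls, 13 of them shared. The 4 comparisons share no library. In all 4 of them 9 members were called higher: H19, Igf2, Dlk1, Usp29, Peg10, Sgce, Mest, Cdkn1c and Nnat, where 3.98% of all genes were. No member was called lower in all 4, where 2.15% of all genes were.

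**Figure D2:**
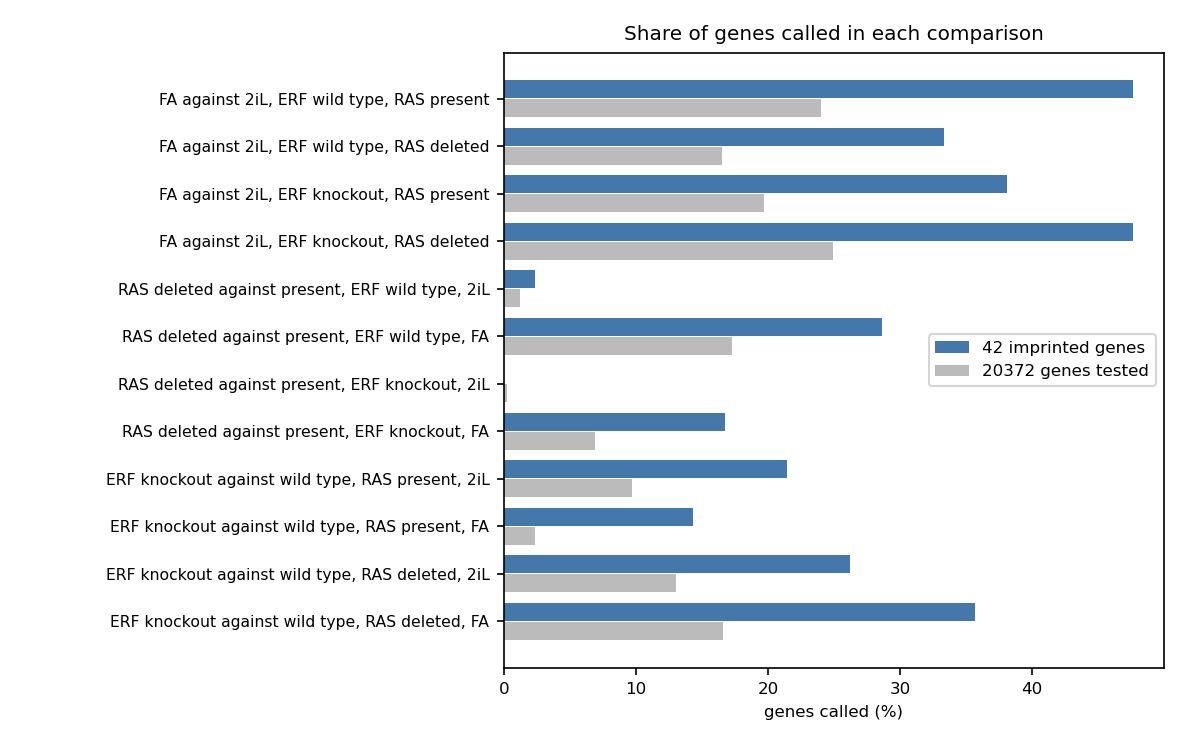
Percent of genes called in each of the 12 comparisons, for the 42 imprinted genes (blue bars) and for all 20372 genes tested (grey bars). The blue bar is longer in every comparison except RAS deletion in 2iL under the ERF knockout label, where no member was called.

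The bulk libraries cannot tell fewer cells of a type from less RNA per cell. The summed level of 6 epiblast-like marker genes was 715 to 762 CPM in the FA libraries of the reference line, 397 to 480 and 612 to 637 CPM under the ERF knockout label with RAS present and deleted, and 143 to 376 CPM with ERF wild type and RAS deleted. That of 8 naive marker genes was 1710 to 2510 CPM in the last group and at most 721 CPM in the other FA groups. The sum of 7 primitive endoderm markers was 104 to 176 CPM in the FA libraries with RAS present and 15.3 to 33.4 CPM in those with RAS deleted. In 2iL it was 14 to 21.6 and 12.1 to 18.6 CPM with ERF wild type (RAS present and deleted), and 27.9 to 69.5 and 19.2 to 27.8 CPM under the knockout label. Trophoblast markers summed to 108 to 129 CPM in 2iL with ERF wild type and 46.5 to 59.5 CPM in 2iL under the knockout label. In FA they summed to 32.8 to 42.6 CPM in the reference line and 51.2 to 58.6 CPM with ERF wild type and RAS deleted. Under the knockout label the FA libraries had 21.4 to 25 CPM. Tfap2c (6.15 to 119 CPM) and Eomes (5.06 to 18.2 CPM) were counted in every library, and so, at lower levels, were Krt7 (0.482 to 3.63 CPM) and Elf5 (0.189 to 1.22 CPM), while Hand1 reached at most 8.1 CPM, Cdx2 1.84 CPM and Plac1 0.36 CPM, with 2, 4 and 9 libraries at 0. Early neural markers summed to 140 to 148 CPM in FA under the knockout label with RAS deleted and to 62 to 102 CPM in the other FA groups. The part of these shifts in cell state in the results below was not tested.

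The RAS states were compared next, separately in each medium. In 2iL few members were called: with ERF wild type 1 of 42 was called, Airn, which was higher, against 1.2% of all genes (0.692% higher), and under the ERF knockout label 0 were called, with 4 at an unadjusted edgeR p under 0.05, against 0.211% of all genes (0.0687% higher and 0.142% lower). DESeq2 called 1 member, Sgce, in the former and 0 in the latter. In FA with ERF wild type 12 members were called, 6 higher and 6 lower with RAS deleted, against 17.3% of all genes (8.93% higher and 8.33% lower). Higher were Dio3, Usp29, Plagl1, Peg12, Ascl2 and Nap1l5, and lower were Rian, Dlk1, Peg10, Sgce, Phlda2 and Grb10. In FA under the ERF knockout label 7 were called, against 6.88% of all genes (2.81% higher and 4.06% lower): Mirg, Dlk1, Peg3, Mest and Plagl1 higher, and Magel2 and Grb10 lower. Leaving out RAS deleted replicate 2 brought that count to 4, where Mirg, Grb10 and Magel2 were not called (0.97, -1 and -1.09).

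The labels ERF knockout and ERF wild type were compared at each RAS state and medium, with the reservation that Erf transcript itself was not called lower under the knockout label. In 2iL 9 members were called with RAS present, 4 higher and 5 lower, against 9.72% of all genes (5.2% higher and 4.52% lower), and 11 in the RAS deleted lines, 5 higher and 6 lower, against 13% (5.83% and 7.15%). In FA 6 were called with RAS present, 1 higher and 5 lower, against 2.36% (1.58% and 0.78%), and 15 in the RAS deleted lines, 7 higher and 8 lower, against 16.6% (8.13% and 8.48%). When the model held no other groups than those compared, the count in FA with RAS present was 3, since Mirg, Zim1 and Kcnq1ot1 no longer passed. Peg3 was called lower in all 4 comparisons, which 0.172% of all genes were, and no member was called higher in all 4, which 0.152% were.

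Of the 42 members, 28 were called in at least 1 of the 12 comparisons, against 45.9% of all genes tested, and 14 in none. The latter were Igf2r, Meg3, Copg2, Ndn, Ube3a, Cd81, Blcap, Gnas, Impact, Slc38a4, Peg13, Commd1, Inpp5f and Mcts2. The heatmap of fold changes shows all 12 comparisons.

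**Figure D3:**
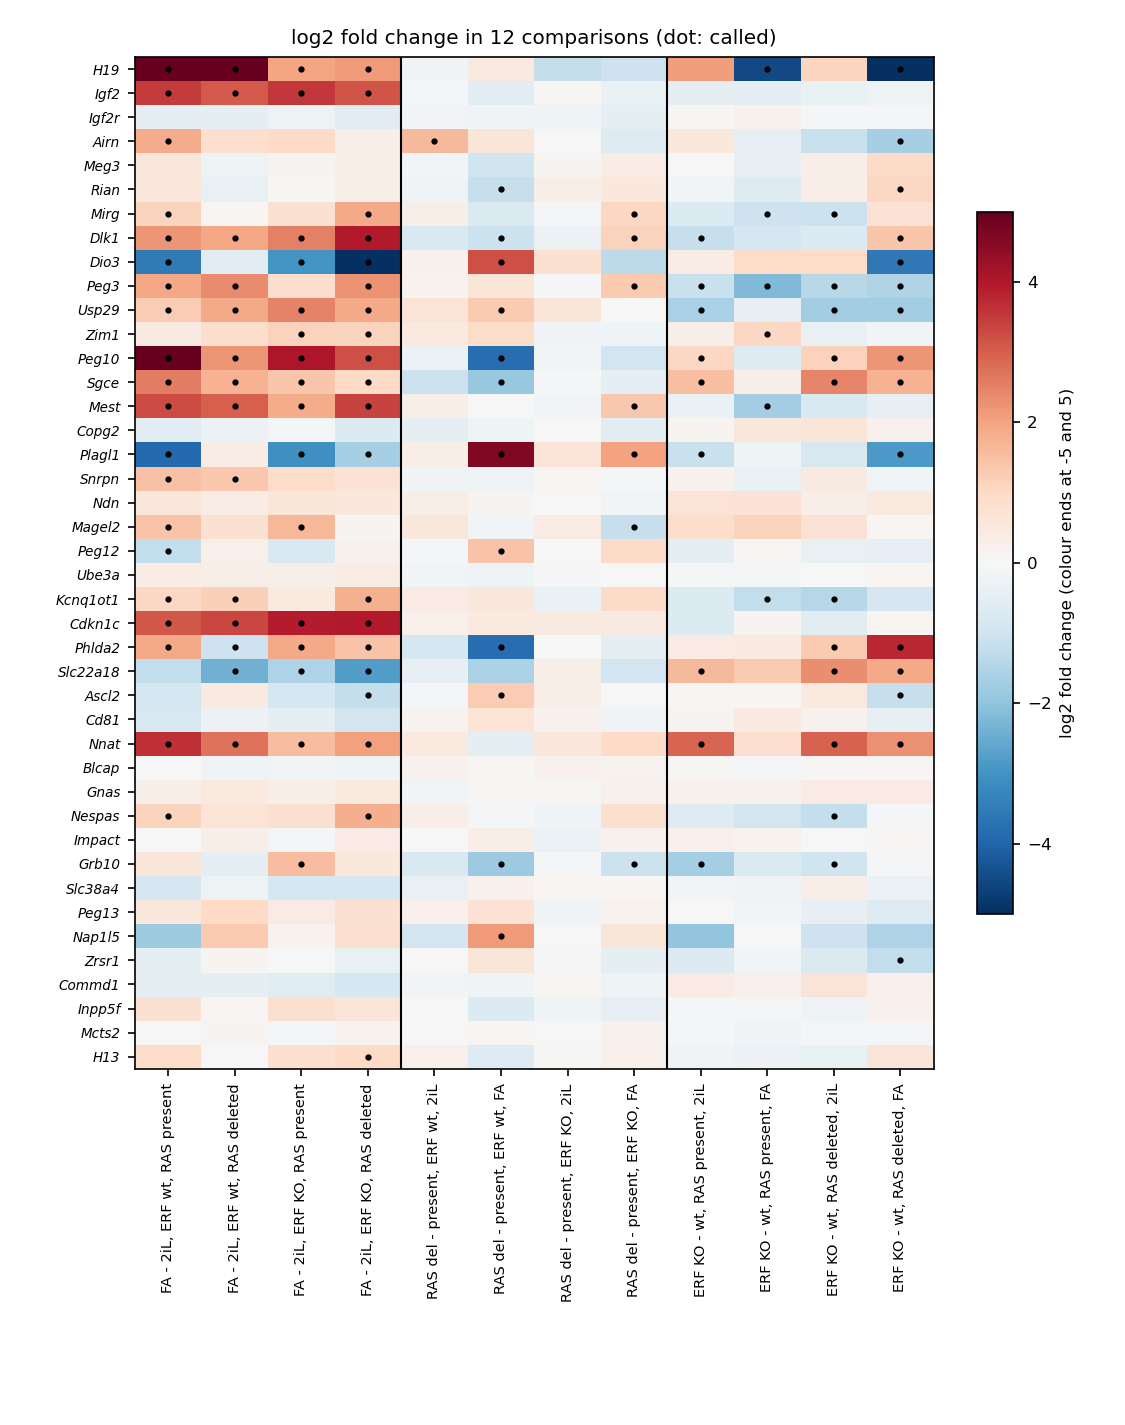
Fitted log2 fold change of the 42 imprinted genes (rows, in cluster order) in the 12 comparisons (columns), with a dot where the gene was called and the colour scale ending at -5 and 5. The 4 columns on the left compare FA with 2iL, the middle 4 RAS deleted with present, and the 4 on the right the labels ERF knockout and wild type; the 2 columns of RAS deletion in 2iL carry a single dot between them.

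H19 and Igf2 share enhancers on chromosome 7 (GRCm38, chr7:142575529-142578143 and chr7:142650766-142666816, both on the minus strand). H19, a maternally expressed noncoding RNA, was near the limit of detection in 2iL, at 0.161 to 0.465 CPM with ERF wild type and 0.341 to 2.05 CPM under the ERF knockout label. In FA it stood at 126 and 98.2 CPM in the reference line and at 69.3, 155 and 229 CPM with RAS deleted. Under the knockout label the FA libraries had only 3.75, 7.64 and 3.39 CPM with RAS present and 1.64, 3.67 and 1.95 CPM with RAS deleted. Every FA library of the wild type lines thus lay above every FA library labelled ERF knockout, and no FA library overlapped the 2iL libraries of its own line.

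The log2 rise of H19 in FA was 8.59 (SE 0.63, edgeR adjusted p 1.04e-08) in the reference line and 9.19 (SE 0.63) with RAS deleted. Under the knockout label it was 1.98 (SE 0.60, edgeR adjusted p 0.0126) and 2.14 (SE 0.82, edgeR adjusted p 0.0367). The latter calls were not stable when 1 library was left out. With RAS present the call was lost without replicate 1 in 2iL (1.62) or replicate 2 in FA (1.51), and with RAS deleted without replicate 1, 2 or 3 in 2iL (1.89, 2.54 and 2.07) or replicate 2 in FA (1.71) and with the effective length offset (1.66, edgeR adjusted p 0.0647). In 2iL the label difference with RAS present had the opposite sign to that in FA, 2.10 (SE 1.03, edgeR adjusted p 0.151), without overlap of the groups, and it was called by DESeq2 (2.14, adjusted p 0.00443), with no count filter (2.10) and with no other groups in the model (2.11, edgeR adjusted p 0.0159). The label difference in FA was -4.51 (SE 0.44, edgeR adjusted p 2.19e-05) with RAS present and -5.99 (SE 0.46, edgeR adjusted p 2.76e-08) with RAS deleted. The interaction of medium and ERF label with RAS present was -6.62 (SE 1.10, edgeR adjusted p 0.00117). With replicate number entered as a block, where the numbers paired the libraries, H19 was also called lower with RAS deleted in 2iL under the knockout label (-1.17, edgeR adjusted p 0.0243, against -1.2 and 0.626 without the block).

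Igf2, the paternally expressed growth factor, rose in all 4 lines. Its 2iL libraries ran from 0.448 to 1.40 CPM. In FA it had 11.1 and 13.3 CPM in the reference line and 4.78, 9.28 and 11.4 CPM with RAS deleted, then 8.27, 9.34 and 9.45 CPM under the knockout label and 8.21, 6.53 and 6.88 CPM under that label with RAS deleted. No FA library overlapped the 2iL libraries. The log2 rise was 3.48 (SE 0.31), 3.08 (SE 0.31), 3.53 (SE 0.32) and 3.16 (SE 0.33), in the order reference line, RAS deleted, knockout label with RAS present, and knockout label with RAS deleted (edgeR adjusted p at most 4.23e-08). None of its RAS or ERF label differences was called, and these ran from -0.51 to 0.05. Across 23 libraries the levels of H19 and Igf2, on the log2(CPM + 1) scale, had a Pearson r of 0.76, a description of libraries that share medium and line.

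**Figure D4:**
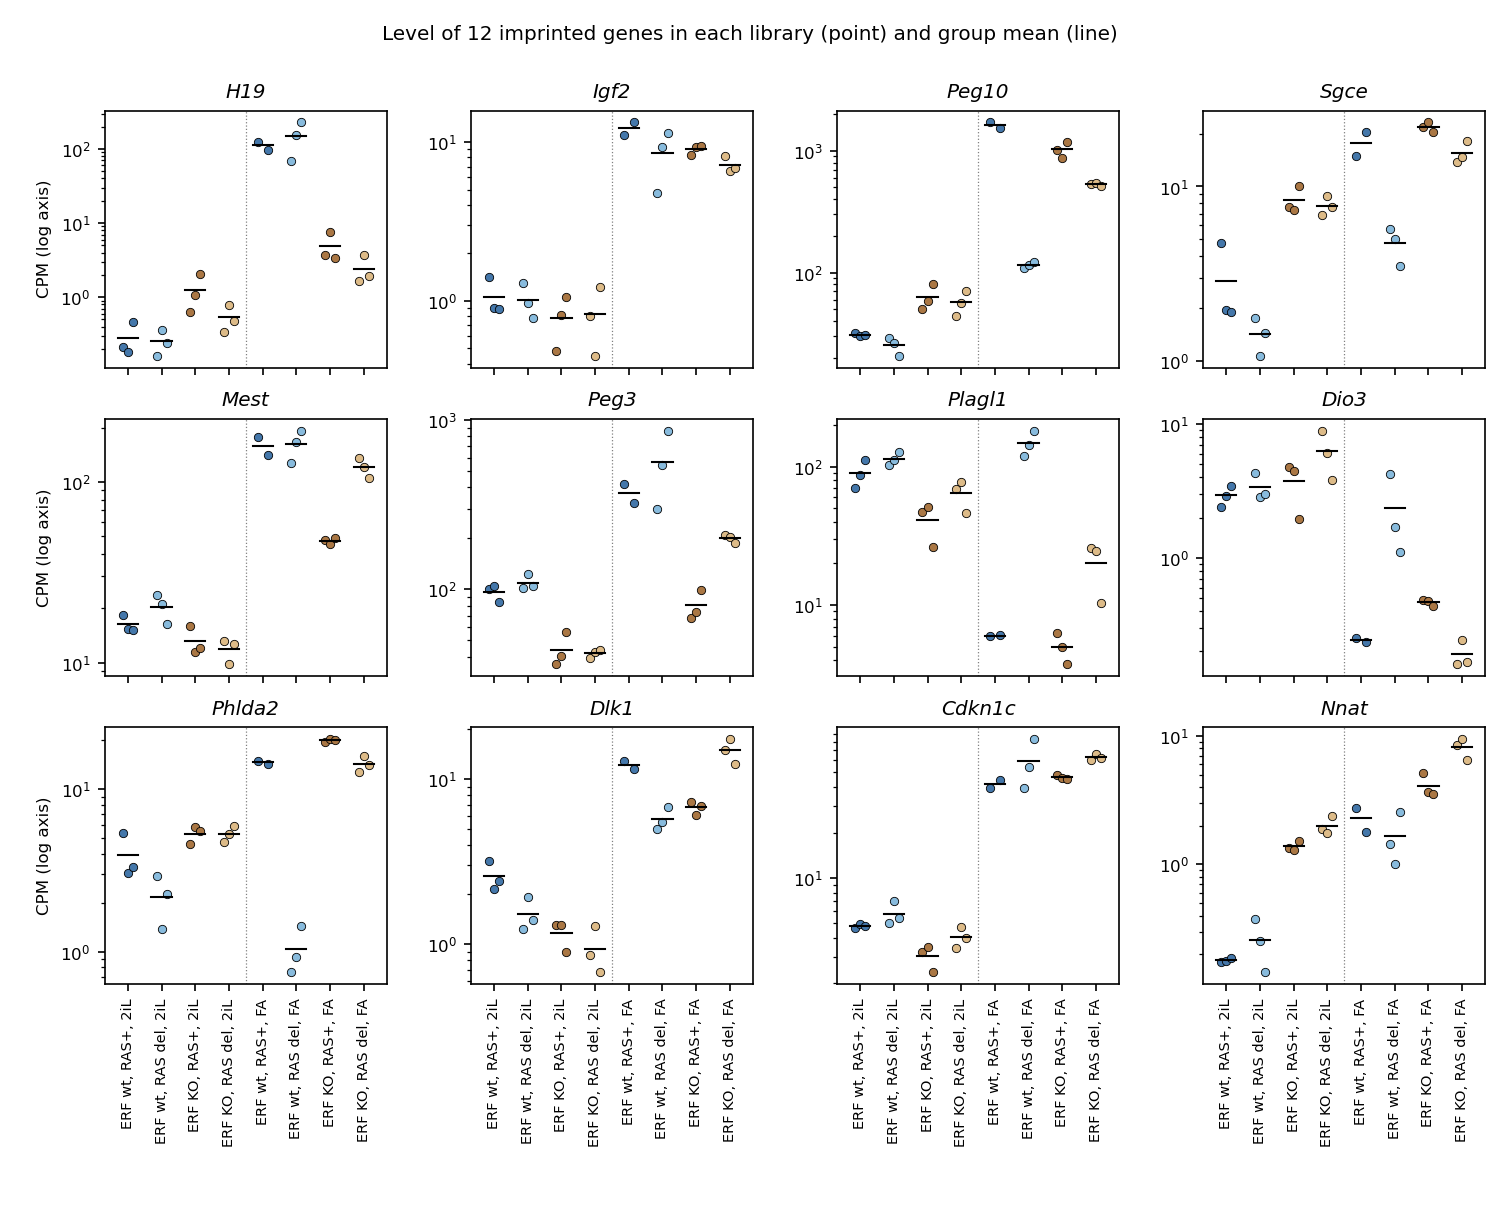
CPM on a log axis of 12 imprinted genes in each of 23 libraries (points) with the group mean (lines), 4 groups in 2iL left of the dotted line and 4 in FA right of it. H19 in FA lies between 69.3 and 229 CPM with ERF wild type and between 1.64 and 7.64 CPM under the ERF knockout label, whereas Igf2 lies between 4.78 and 13.3 CPM in every FA library.

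In the Igf2r cluster of chromosome 17, Igf2r encodes the receptor that clears IGF2 and Airn is a paternal noncoding RNA that crosses it on the other strand. Igf2r had 161 to 327 CPM in all libraries and was called in no comparison. Airn was scarce, with at most 27 counts in a library, and was called higher in FA in the reference line (log2 1.87, SE 0.51, edgeR adjusted p 0.00372), but not without replicate 1 of that FA group (1.15). Between the ERF labels it was lower under knockout in FA with RAS deleted (-1.65, SE 0.39, edgeR adjusted p 0.00151). Its call for RAS deletion in 2iL (1.64, SE 0.49, edgeR adjusted p 0.0495) was lost when any 1 of the 6 libraries was left out, at values from 1.48 to 1.83, and with the effective length offset (1.44, edgeR adjusted p 0.167), and with replicate number entered as a block Airn did not pass the count filter. The kit marks strand, but the strand setting of the counting is not given in the sources used here, so reads of such overlapping pairs may be shared.

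The Dlk1-Dio3 cluster of chromosome 12 holds the paternal genes Dlk1, a Notch-like ligand, and Dio3, the deiodinase that inactivates thyroid hormone, and the maternal noncoding RNAs Meg3, Rian and Mirg. Dlk1 (chr12:109452823-109463336) had 3.19, 2.14 and 2.42 CPM in 2iL in the reference line and 12.8 and 11.5 CPM in FA. With RAS deleted and ERF wild type it had 1.24, 1.93 and 1.40 CPM in 2iL and 5.00, 5.51 and 6.76 CPM in FA. The libraries labelled ERF knockout had 0.674 to 1.30 CPM in 2iL, 7.26, 6.04 and 6.89 CPM in FA with RAS present, and 14.9, 17.5 and 12.3 CPM in FA with RAS deleted. FA lay above 2iL in every line without overlap. Within FA, RAS deletion went with less Dlk1 under ERF wild type and with more under the knockout label.

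The rise of Dlk1 in FA was 2.21, 1.92, 2.52 and 3.97 on the log2 scale in the 4 lines (SE 0.21 to 0.23). Its RAS difference in FA was -1.08 (SE 0.20, edgeR adjusted p 0.000121) with ERF wild type and 1.15 (SE 0.18, edgeR adjusted p 6.78e-05) under the knockout label, and the interaction of 2.22 (SE 0.27) had an edgeR adjusted p of 1.31e-06. The former fell just short of 2-fold without replicate 1 of either FA group (-0.97 and -0.99). By ERF label Dlk1 was called lower in 2iL with RAS present (-1.16, SE 0.24), but not without replicate 1 of the wild type group (-0.95) or with the length offset (-0.80), and higher in FA with RAS deleted (1.37, SE 0.18, edgeR adjusted p 1.64e-06).

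Dio3 (chr12:110279068-110281097) went the other way with medium. In the reference line it had 2.42, 2.92 and 3.44 CPM in 2iL and 0.252 and 0.237 CPM in FA. RAS deleted libraries of ERF wild type had 4.30, 2.84 and 3.00 CPM in 2iL and 4.21, 1.70 and 1.11 CPM in FA, so the groups overlapped. Under the knockout label it fell from 4.76, 4.49 and 1.94 CPM to 0.489, 0.478 and 0.438 CPM with RAS present. With RAS deleted it fell from 8.93, 6.05 and 3.84 CPM to 0.161, 0.245 and 0.166 CPM. RAS deleted under ERF wild type was thus the only FA group in which no library lay below 1 CPM.

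The log2 changes of Dio3 in FA were -3.54 (SE 0.60), -2.98 (SE 0.46) and -5.02 (SE 0.51) in the 3 lines with a call, and -0.54 (SE 0.38, edgeR adjusted p 0.272) with ERF wild type and RAS deleted. The last of these was -1.27 and called without FA replicate 1 (edgeR adjusted p 0.0056), and -1.06 without the 4 libraries with raised chromosome 8 genes. RAS deletion in FA gave 3.21 (SE 0.61, edgeR adjusted p 0.000216) with ERF wild type and -1.29 (SE 0.65, edgeR adjusted p 0.155) under the knockout label, the latter called with no other groups in the model (-1.30, edgeR adjusted p 0.0238). The interaction of RAS and ERF was -4.49 (SE 0.90, edgeR adjusted p 0.0007), and that of medium and RAS with ERF wild type 3.00 (SE 0.73). The label difference in FA with RAS deleted was -3.58 (SE 0.54). Among the RAS deleted FA libraries of ERF wild type, replicate 1 had the most Dio3, and without it these values were 2.49 for RAS deletion, -2.86 for the label, and -3.77 and 2.27 for the interactions, all still called, beside the fall that became a call.

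The noncoding RNAs of the cluster were abundant and moved less. Rian (chr12:109603940-109661716), a host of small nucleolar RNAs, had 338 to 500 CPM in all 2iL libraries. In FA it had 624 and 575 CPM in the reference line, 200, 277 and 339 CPM with RAS deleted, 363, 351 and 439 CPM under the knockout label, and 523, 583 and 572 CPM under that label with RAS deleted. The RAS difference in FA was -1.14 (SE 0.14, edgeR adjusted p 2.07e-06) with ERF wild type and 0.54 (SE 0.13, edgeR adjusted p 0.0046) under the knockout label, the latter under 2-fold. The interaction was 1.68 (SE 0.20, edgeR adjusted p 1.77e-06), and the label difference with RAS deleted 1.04 (SE 0.13). Without replicate 1 of the FA group with ERF wild type and RAS deleted, the lowest library, the RAS difference was -0.96 and the label difference 0.86, both under 2-fold. Meg3, at 148 to 456 CPM, differed by -0.98 (SE 0.18) with RAS deletion in FA with ERF wild type, just under 2-fold (-1.20 and called without RAS deleted replicate 3), and by 0.39 (SE 0.16, edgeR adjusted p 0.0928) under the knockout label, with an interaction of 1.37 (SE 0.25, edgeR adjusted p 0.000348), and its r with Rian over 23 libraries was 0.96.

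Mirg (chr12:109729764-109749460), the microRNA host, had 24.4, 32.6 and 43.6 CPM in 2iL and 83.5 and 61.3 CPM in FA in the reference line. The RAS deleted libraries had 35.4, 41.2 and 46.9 CPM in 2iL and 28.0, 43.6 and 60.5 CPM in FA, which overlapped. The knockout-labelled libraries had 18.1 to 22 CPM in 2iL, 32.7, 28.9 and 45.1 CPM in FA with RAS present, and 70.3, 79.3 and 70.2 CPM in FA with RAS deleted. The rise in FA was called in the reference line (log2 1.12, SE 0.26) and under the knockout label with RAS deleted (1.89, SE 0.25, edgeR adjusted p 6.80e-06), the former not without replicate 1 of either group (0.92 in 2iL and 0.86 in FA). The interaction of RAS and ERF in FA was 1.76 (SE 0.35, edgeR adjusted p 0.00126).

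Other calls of Mirg lay close to 2-fold and were lost in some fits that left out 1 library. Its RAS difference in FA under the knockout label was 1.04 (SE 0.24), and 0.98 or 0.90 without replicate 1 or 2 of the RAS present group and 0.97 with RAS deleted replicate 2 left out. By label it was -1.03 in FA with RAS present, and not called without replicate 1 of the wild type group (-0.75) or replicate 1 or 2 of the knockout group (-0.97 and -0.88). By label in 2iL with RAS deleted it was -1.06, and -0.95 without wild type replicate 3 and -0.99 without knockout replicate 2.

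Peg3, a paternal zinc finger gene (chr7:6703892-6730431), and Usp29, a ubiquitin-specific protease read from the same promoter region in the other direction (chr7:6730578-6967219), form the next cluster with Zim1. Peg3 had 99.9, 104 and 84.7 CPM in 2iL and 420 and 323 CPM in FA in the reference line. With RAS deleted it had 102, 123 and 104 CPM in 2iL and 299, 539 and 865 CPM in FA. Libraries with the knockout label had 36.2, 40.2 and 56.0 CPM in 2iL and only 68.2, 73.9 and 99 CPM in FA with RAS present. With RAS deleted under that label it had 39.4, 42.4 and 44.1 CPM in 2iL and 208, 204 and 188 CPM in FA. In each of the 4 settings every library labelled ERF knockout lay below every wild type library.

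The label differences of Peg3 were -1.12 (SE 0.28) and -1.39 (SE 0.28) in 2iL with RAS present and deleted, and -2.21 (SE 0.30) and -1.5 (SE 0.27) in FA, with edgeR adjusted p from 0.000274 to 0.00651. Without replicate 1 of the knockout group the first was -0.98. The rise in FA was 1.95 (SE 0.30), 2.37 (SE 0.28) and 2.26 (SE 0.29) in 3 lines, and 0.86 (SE 0.28, edgeR adjusted p 0.0176) under the knockout label with RAS present, where it was under 2-fold (1.07 and called without 2iL replicate 3). In FA, RAS deletion gave 1.32 (SE 0.27, edgeR adjusted p 0.00222) under the knockout label and 0.61 (SE 0.30, edgeR adjusted p 0.119) with ERF wild type, and the interaction of 0.71 did not pass (edgeR adjusted p 0.211). That interaction was 1.14 and called without RAS deleted replicate 3 of ERF wild type (edgeR adjusted p 0.0108), and the value of 0.61 was 1.13 and called without the 4 libraries with raised chromosome 8 genes (edgeR adjusted p 0.0129).

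Usp29 rose in FA in every line, by 1.26 (SE 0.26), 1.88 (SE 0.23), 2.48 (SE 0.28) and 1.90 (SE 0.27) on the log2 scale. Its 2iL libraries had 2.66, 2.92 and 4.37 CPM in the reference line, 4.09, 5.88 and 6.10 CPM with RAS deleted, and 0.631 to 1.90 CPM under the knockout label. In FA it had 6.80 and 9.14 CPM in the reference line and 15.9, 21.1 and 22.1 CPM with RAS deleted, against 5.18 to 7.38 CPM in all 6 libraries under the knockout label. RAS deletion in FA gave 1.31 (SE 0.25, edgeR adjusted p 0.000186) with ERF wild type and 0.01 (SE 0.23) under the label, an interaction of -1.30 (SE 0.33, edgeR adjusted p 0.00518). The label differences were -1.64, -1.74 and -1.72 in 2iL with RAS present, 2iL with RAS deleted and FA with RAS deleted (SE 0.22 to 0.30), whereas in FA with RAS present it was -0.42 (SE 0.25, edgeR adjusted p 0.312) and the groups overlapped.

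Zim1, a maternal zinc finger gene of the cluster, ran from 0.672 to 3.08 CPM. It was called higher in FA under the knockout label, at 1.17 (SE 0.29) with RAS present and 1.12 (SE 0.30) with RAS deleted, the latter not without replicate 2 of the 2iL group (0.86). Neither was called with an offset for the effective transcript lengths (0.74 and 0.79, edgeR adjusted p 0.231 and 0.196). Its label difference in FA with RAS present, 1.03 (SE 0.32, edgeR adjusted p 0.0409), was lost without replicate 1 or 2 of the wild type group (1.09 and 1.02) or replicate 2 or 3 of the knockout group (0.98 and 0.92), and with the length offset (1.27, edgeR adjusted p 0.168). Over 23 libraries the r of Peg3 with Usp29 was 0.88.

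Peg10, a retrotransposon-derived gene needed for the placenta (chr6:4747306-4760517), and Sgce, epsilon-sarcoglycan (chr6:4674350-4747207), are paternally expressed from a shared promoter region on opposite strands. Peg10 had 31.7, 30.1 and 31.0 CPM in 2iL in the reference line and 1710 and 1530 CPM in FA. With RAS deleted and ERF wild type it had 28.8, 26.4 and 20.7 CPM in 2iL but only 110, 115 and 121 CPM in FA. Cells labelled ERF knockout had 50.6, 58.3 and 80.1 CPM in 2iL and 1010, 880 and 1190 CPM in FA with RAS present. With RAS deleted under that label it had 44.3, 55.8 and 70.3 CPM in 2iL and 538, 542 and 512 CPM in FA. No 2 of the 4 FA groups overlapped.

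The log2 rise of Peg10 in FA was 5.71 (SE 0.20), 2.19 (SE 0.17), 4.03 (SE 0.18) and 3.22 (SE 0.17) in the 4 lines (edgeR adjusted p at most 4.09e-09). In FA, RAS deletion gave -3.82 (SE 0.18, edgeR adjusted p 5.68e-12) with ERF wild type and -0.95 (SE 0.15, edgeR adjusted p 0.000196), under 2-fold, under the knockout label. That interaction was 2.86 (SE 0.23, edgeR adjusted p 3.01e-08). The interactions of medium with the ERF label and of medium with RAS were -1.68 (SE 0.24, edgeR adjusted p 0.000139) and -3.52 (SE 0.24, edgeR adjusted p 3.25e-09). By label Peg10 was higher in 2iL, by 1.02 (SE 0.16) with RAS present and 1.17 (SE 0.17) with RAS deleted, and in FA with RAS deleted by 2.2 (SE 0.16, edgeR adjusted p 1.77e-09). The 2iL calls dropped under 2-fold without knockout replicate 3 (0.81 and 0.99). The sum of primitive endoderm markers was, like Peg10, lower in FA with RAS deleted (104 to 176 against 15.3 to 33.4 CPM). The sizes did not match. Under the knockout label that sum went from 104 to 106 CPM with RAS present to 22.8 to 33.4 CPM with RAS deleted, where Peg10 differed by -0.95. In 2iL that sum was also higher under the knockout label, as Peg10 and Sgce were, without overlap at either RAS state (27.9 to 69.5 against 14 to 21.6 CPM, and 19.2 to 27.8 against 12.1 to 18.6 CPM), and its part was not tested.

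Sgce had 4.73, 1.96 and 1.90 CPM in 2iL and 15 and 20.5 CPM in FA in the reference line, and 1.77, 1.07 and 1.45 CPM and 5.74, 4.98 and 3.49 CPM with RAS deleted. The knockout-labelled libraries had 6.83 to 10.1 CPM in 2iL, 22, 23.3 and 20.5 CPM in FA, and 13.8, 14.8 and 18.2 CPM in FA with RAS deleted. It rose in FA by 2.57 (SE 0.28), 1.72 (SE 0.31), 1.39 (SE 0.24) and 1 (SE 0.24). The last of these stood at the 2-fold limit: with replicate number entered as a block, where the numbers paired the libraries, it was 0.99, and it was 0.92, 0.99 and 0.87 without replicates 1 and 3 in 2iL and replicate 3 in FA. Without replicate 1 of the 2iL group, which was highest, the rise in the reference line was 3.18.

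RAS deletion in FA lowered Sgce by 1.91 (SE 0.26, edgeR adjusted p 7.32e-06) with ERF wild type, while the change of -0.50 under the knockout label did not pass (edgeR adjusted p 0.114), and the interaction was 1.41 (SE 0.35, edgeR adjusted p 0.00447). By label Sgce was higher by 1.49 (SE 0.27) in 2iL with RAS present, by 2.44 (SE 0.31) in 2iL with RAS deleted and by 1.72 (SE 0.25) in FA with RAS deleted, and the first of these was 2.13 without wild type replicate 1. Its r with Peg10 over 23 libraries was 0.87.

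Mest, a paternal hydrolase-family gene on chromosome 6 (chr6:30723547-30748465), rose in FA in all lines. The reference line had 18.4, 15.4 and 15.2 CPM in 2iL and 177 and 141 CPM in FA, and with RAS deleted 23.7, 21.1 and 16.4 CPM and 128, 166 and 193 CPM. Libraries with the knockout label had 9.80 to 15.9 CPM in 2iL, 48.0, 45.3 and 48.9 CPM in FA with RAS present, and 136, 122 and 106 CPM in FA with RAS deleted. The FA libraries with the knockout label and RAS present thus lay apart, below those of the other 3 FA groups. The rises were 3.27, 2.99, 1.85 and 3.36 on the log2 scale (SE 0.17 to 0.18).

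RAS deletion in FA left Mest at 0.03 (SE 0.17, edgeR adjusted p 0.909) with ERF wild type and raised it by 1.36 (SE 0.16, edgeR adjusted p 4.58e-06) under the knockout label. The interaction was 1.33 (SE 0.23, edgeR adjusted p 0.000187), and 0.99 without the 4 libraries with raised chromosome 8 genes. The label difference in FA with RAS present was -1.74 (SE 0.17, edgeR adjusted p 7.80e-06), and the interaction of medium and label -1.42 (SE 0.24). Copg2, a coatomer subunit gene whose end overlaps Mest on the other strand, stayed at 41.2 to 86.2 CPM with no call, and its r with Mest was -0.78.

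Plagl1 (chr10:13060504-13131694) encodes a paternally expressed zinc finger transcription factor. In 2iL it had 70.3, 86.8 and 112 CPM in the reference line and 103, 112 and 128 CPM with RAS deleted. Under the knockout label the 2iL libraries had 47.0, 50.9 and 26.4 CPM with RAS present and 69.5, 78.0 and 46.4 CPM with RAS deleted. In FA it was down at 5.97 and 6.06 CPM in the reference line, 6.24, 5.00 and 3.75 CPM under the knockout label, and 25.9, 24.6 and 10.4 CPM under that label with RAS deleted. With ERF wild type and RAS deleted, by contrast, the FA libraries had 119, 144 and 182 CPM and overlapped their 2iL libraries.

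The fall of Plagl1 in FA was -3.90 (SE 0.43, edgeR adjusted p 1.28e-06) in the reference line, -3.05 (SE 0.37) and -1.67 (SE 0.32) under the knockout label with RAS present and deleted, and 0.38 (SE 0.30, edgeR adjusted p 0.335) with ERF wild type and RAS deleted. RAS deletion in FA raised it by 4.63 (SE 0.44, edgeR adjusted p 3.81e-07) with ERF wild type and by 2.03 (SE 0.37, edgeR adjusted p 0.000871) under the knockout label. Their difference, the interaction, was -2.60 (SE 0.56, edgeR adjusted p 0.00225). The interaction of medium and RAS with ERF wild type was 4.28 (SE 0.52, edgeR adjusted p 1.34e-05). By label Plagl1 was -2.87 (SE 0.33) in FA with RAS deleted, and -1.11 (SE 0.31, edgeR adjusted p 0.0137) in 2iL with RAS present, the latter lost without wild type replicate 3 (-0.92) or knockout replicate 3 (-0.87). The summed naive markers were also highest in the FA group with ERF wild type and RAS deleted, at 1710 to 2510 CPM against at most 721 CPM, and their part was not tested.

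**Figure D5:**
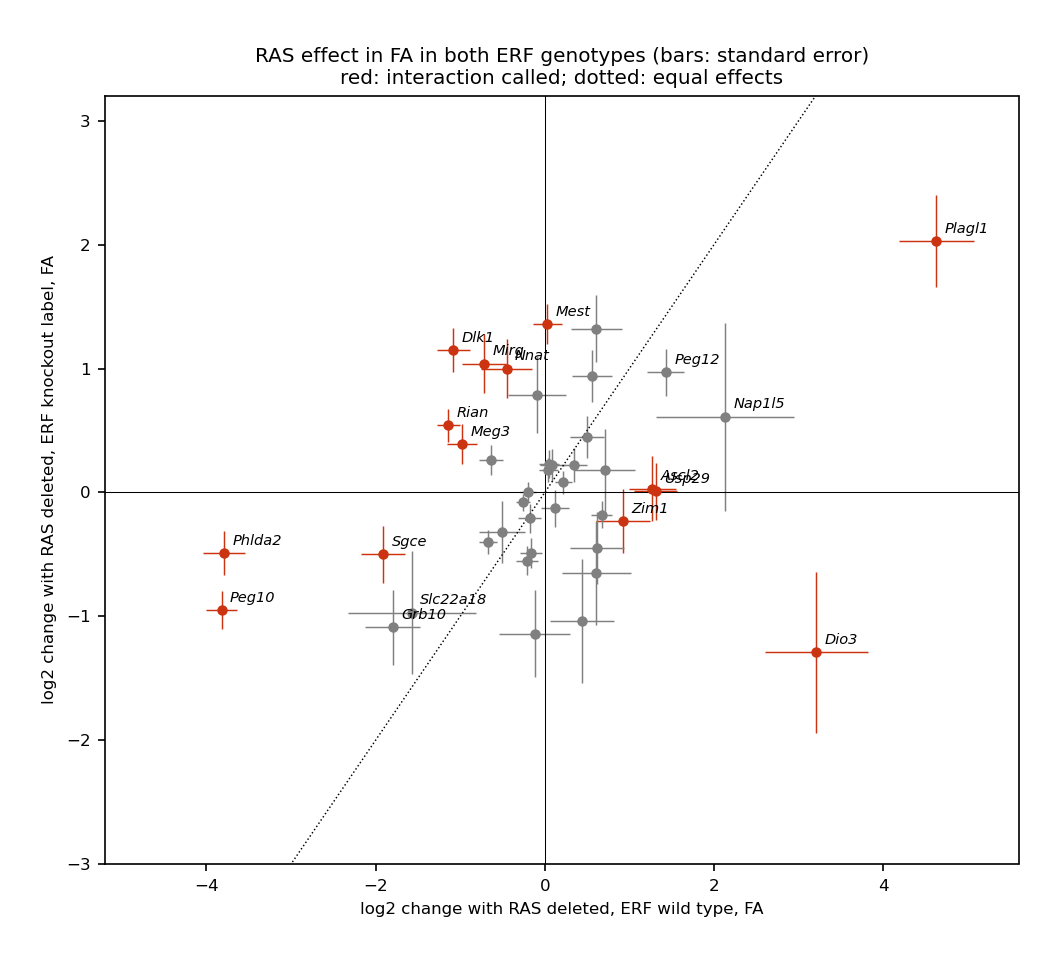
RAS effect in FA with ERF wild type (x axis) and under the ERF knockout label (y axis), both log2 fold change with standard error bars, for the 42 imprinted genes; red marks the 14 members whose interaction was called, and the dotted line marks equal effects. Plagl1 lies at 4.63 and 2.03, Peg10 at -3.82 and -0.95, Phlda2 at -3.79 and -0.49, and Dlk1 at -1.08 and 1.15.

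The Kcnq1ot1 domain on distal chromosome 7 holds the paternal noncoding RNA Kcnq1ot1 and maternally expressed genes. Cdkn1c (chr7:143458339-143461050), which encodes the cell cycle inhibitor p57, had 4.69, 4.94 and 4.83 CPM in 2iL in the reference line and 39.2 and 44.6 CPM in FA. It had 5.00, 7 and 5.42 CPM and 39.7, 54.5 and 83.5 CPM with RAS deleted. Cells labelled ERF knockout had 2.37 to 4.76 CPM in 2iL, 47.9, 46.0 and 45.0 CPM in FA, and 60.6, 66.7 and 62.6 CPM in FA with RAS deleted. The rises were 3.12, 3.35, 3.94 and 3.96 on the log2 scale (SE 0.21 to 0.22, edgeR adjusted p at most 5.00e-10). No RAS or label difference of Cdkn1c was called.

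Phlda2 (chr7:143501545-143503150), a maternal gene that restrains placental growth, differed by RAS state in FA with ERF wild type. The reference line had 5.39, 3.04 and 3.30 CPM in 2iL and 15 and 14.3 CPM in FA, whereas with RAS deleted it had 2.90, 1.37 and 2.27 CPM in 2iL and 0.745, 0.932 and 1.44 CPM in FA. The knockout-labelled libraries had 4.61 to 5.93 CPM in all 2iL libraries. Its FA libraries under that label had 19.6, 20.4 and 20.1 CPM with RAS present and 12.8, 15.9 and 14.1 CPM with RAS deleted. The single FA group under 2 CPM was thus ERF wild type with RAS deleted.

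In FA RAS deletion changed Phlda2 by -3.79 (SE 0.25, edgeR adjusted p 4.29e-11) with ERF wild type and by -0.49 (SE 0.18, edgeR adjusted p 0.0535) under the knockout label, with an interaction of 3.30 (SE 0.31, edgeR adjusted p 5.29e-08). The change from 2iL to FA was 1.88 (SE 0.22), 1.91 (SE 0.20) and 1.42 (SE 0.20) in 3 lines and -1.04 (SE 0.27, edgeR adjusted p 0.00341) with ERF wild type and RAS deleted. The last groups overlapped, and that call was lost without replicate 1 in 2iL (-0.79) or replicate 1 or 2 in FA (-0.86 and -0.96). The interaction of medium and RAS was -2.92 (SE 0.35, edgeR adjusted p 1.24e-06). The label differences with RAS deleted were 1.29 (SE 0.24) in 2iL and 3.75 (SE 0.24, edgeR adjusted p 1.77e-11) in FA.

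Slc22a18, a transporter gene of the domain, was called lower in FA in 3 lines and higher under the knockout label in 3 settings. Its 2iL libraries had 1.47, 1.07 and 1.39 CPM in the reference line, 0.269, 1.22 and 1.5 CPM with RAS deleted, and 3.25 to 6.07 CPM under the knockout label. In FA it had 0.324 and 0.852 CPM, then 0.175, 0.365 and 0.0359 CPM with RAS deleted, and 0.451 to 2.22 CPM under the label. The fall was -2.39 (SE 0.65), -1.53 (SE 0.44) and -2.81 (SE 0.47) in the 3 lines other than the reference line, and the first of these was not tested with replicate number as a block, where the gene did not pass the count filter. By label the differences were 1.61 (SE 0.45) and 2.32 (SE 0.47) in 2iL. In FA with RAS deleted it was 1.90 (SE 0.66, edgeR adjusted p 0.0253), which was lost without wild type replicate 1 or 3 (1.86 and 1.37) or knockout replicate 3 (1.30) or with the length offset (1.51, edgeR adjusted p 0.0701) and was 2.78 without wild type replicate 2. The falls were -3.27 without FA replicate 2 of the wild type group and -3.42 without FA replicate 3 of the knockout group, both with RAS deleted.

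Kcnq1ot1 (chr7:143203458-143296549) had 92.2, 116 and 119 CPM in 2iL in the reference line, but its FA libraries there differed, at 306 and 144 CPM. The RAS deleted libraries had 138, 154 and 140 CPM in 2iL and 262, 342 and 389 CPM in FA. Libraries with the knockout label had 49.3 to 70.2 CPM in 2iL, 93.3, 76.1 and 120 CPM in FA with RAS present, and 198, 184 and 174 CPM in FA with RAS deleted. It rose in FA by 1.2 (SE 0.21) with RAS deleted and ERF wild type and by 1.79 (SE 0.22, edgeR adjusted p 2.32e-06) under the knockout label with RAS deleted. The rise in the reference line, 1.05 (SE 0.23), was 0.38 without FA replicate 1 and 0.94 without 2iL replicate 1, both not called. The label difference in 2iL with RAS deleted was -1.42 (SE 0.22, edgeR adjusted p 6.78e-05), and that in FA with RAS present, -1.22 (SE 0.23), was -0.55 without wild type replicate 1. The RAS difference in FA with ERF wild type was 0.56 (SE 0.24, edgeR adjusted p 0.0723) and became a call without that library, at 1.22 (edgeR adjusted p 0.000307). Under the label it was 0.94 (SE 0.21), and 1.13 and called without RAS present replicate 3.

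Ascl2, a basic helix-loop-helix gene of the placenta, ran from 1.26 to 5.03 CPM. It was called lower in FA under the knockout label with RAS deleted (-1.18, SE 0.25) and higher with RAS deletion in FA with ERF wild type (1.27, SE 0.28), the latter not without replicate 1 of the RAS present group (0.94). By label it was lower in FA with RAS deleted (-1.14, SE 0.24), and -0.95 without wild type replicate 3. Cd81 stayed between 71.4 and 223 CPM without a call. Over 23 libraries the r of Kcnq1ot1 was 0.70 with Cdkn1c, -0.91 with Slc22a18 and -0.24 with Phlda2.

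Nnat, a paternal proteolipid gene that lies within Blcap on the other strand (chr2:157560078-157562522), had 0.175, 0.179 and 0.186 CPM in 2iL in the reference line and 2.77 and 1.80 CPM in FA. With RAS deleted it had 0.376, 0.254 and 0.145 CPM in 2iL and 1.45, 1.01 and 2.55 CPM in FA. Cells labelled ERF knockout had 1.35, 1.30 and 1.52 CPM in 2iL and 5.10, 3.65 and 3.51 CPM in FA with RAS present, and 1.88, 1.74 and 2.36 CPM and 8.5, 9.47 and 6.47 CPM with RAS deleted. In all 4 settings the libraries labelled ERF knockout lay above the wild type libraries.

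The rises of Nnat in FA were 3.64 (SE 0.41), 2.70 (SE 0.38), 1.55 (SE 0.28) and 2.04 (SE 0.27). The 2iL libraries with ERF wild type held only 3 to 7 counts of Nnat, so the sizes of differences against them are uncertain. The label differences were 2.91 (SE 0.42, edgeR adjusted p 1.44e-05) and 2.93 (SE 0.39) in 2iL and 2.27 (SE 0.26, edgeR adjusted p 2.38e-07) in FA with RAS deleted, while 0.82 (SE 0.29, edgeR adjusted p 0.0755) in FA with RAS present did not pass. The interactions of RAS with label (1.45, SE 0.39) and of medium with label (-2.09, SE 0.52) were lost without FA replicate 1 of the reference line (1.07 and -1.72). Blcap stayed at 9.84 to 14.8 CPM with no call. Early neural markers were also highest in FA under the knockout label with RAS deleted (140 to 148 CPM). In 2iL, however, their sum was lower under that label, at 35.3 to 41.3 against 47.5 to 79.7 CPM with RAS present. With RAS deleted it was 43.6 to 44.7 against 49.3 to 70.3 CPM. In FA with RAS present the groups overlapped (62 to 81.5 against 73.4 to 89 CPM). The part of these markers was not tested.

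In the Snrpn-Ube3a domain of chromosome 7, Snrpn, a splicing component, rose in FA in the wild type lines. It had 36.6, 30.7 and 31.2 CPM in 2iL and 83.8 and 95.8 CPM in FA in the reference line, and 32.0, 27.8 and 28.3 CPM and 74.9, 71.8 and 78.7 CPM with RAS deleted. The rises were 1.45 and 1.35 (SE 0.08 each). Under the knockout label it went from 34.8 to 41.3 CPM in 2iL to 66.6 to 73.0 CPM in FA, with changes of 0.91 and 0.74 (SE 0.08), which passed the adjusted p but not the 2-fold minimum. Ube3a, the ubiquitin ligase of the domain, stayed between 97.1 and 144 CPM, and Ndn, a MAGE family gene, between 3.39 and 10.1 CPM, with no call.

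Peg12, a GSK3-binding protein gene of that domain, had 6.62, 5.53 and 7.57 CPM in 2iL and 2.66 and 2.94 CPM in FA in the reference line. The RAS deleted libraries had 8.07, 5.83 and 5.08 CPM in 2iL and 8.19, 7.86 and 6.58 CPM in FA, which overlapped. The knockout-labelled libraries had 3.94 to 5.47 CPM in 2iL, 3.71, 2.61 and 2.39 CPM in FA, and 5.34, 6.45 and 5.35 CPM in FA with RAS deleted. It fell in FA by 1.24 (SE 0.22) in the reference line, and RAS deletion in FA raised it there by 1.43 (SE 0.22, edgeR adjusted p 1.52e-05), with an interaction of medium and RAS of 1.49 (SE 0.29, edgeR adjusted p 0.000426). RAS deletion under the knockout label gave 0.97 (SE 0.19, edgeR adjusted p 0.000729), under 2-fold.

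Magel2, at 0.263 to 3.13 CPM, was called higher in FA in the reference line (1.42, SE 0.47), but not without FA replicate 1 (1.36), and under the knockout label with RAS present (1.66, SE 0.38). Its RAS difference in FA under the knockout label, -1.14 (SE 0.35), was lost without RAS present replicate 1 or 2 (-1.08 and -0.95) or RAS deleted replicate 2 or 3 (-1.09 and -1.10).

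At the Gnas locus of chromosome 2, Gnas itself, the stimulatory G protein gene, had 107 to 241 CPM and no call. Nespas, a paternal antisense RNA, had 7.07, 9.58 and 13.6 CPM in 2iL and 24.4 and 19.1 CPM in FA in the reference line, and 11.2, 12.9 and 14 CPM and 16.7, 22.2 and 22.5 CPM with RAS deleted. The knockout-labelled libraries had 5.53, 8.66 and 5.10 CPM in 2iL and 8.11, 13.9 and 12.0 CPM in FA, and with RAS deleted 4.78, 8.40 and 3.23 CPM and 16, 28.2 and 14.7 CPM. It was called higher in FA in the reference line (1.12, SE 0.35) and under the label with RAS deleted (1.82, SE 0.34, edgeR adjusted p 0.000202), the former not without replicate 1 in 2iL (0.90) or FA (0.91). The label difference in 2iL with RAS deleted, -1.2 (SE 0.35), was -0.95 and not called without knockout replicate 3.

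Grb10 (chr11:11930508-12038683), an adaptor that restrains growth factor receptors, had 92.1, 55.1 and 92.9 CPM in 2iL in the reference line and 65.6 and 179 CPM in FA, a wide split between the FA libraries. With RAS deleted it had 44.0, 36.2 and 63.0 CPM in 2iL and 30.4, 34.0 and 40.8 CPM in FA. Libraries with the knockout label had 26.6, 24.3 and 23.9 CPM in 2iL and 75.7, 62.0 and 80.6 CPM in FA, and with RAS deleted 24.9, 20.0 and 26.1 CPM and 32.8, 29.2 and 40.3 CPM. It rose in FA under the label with RAS present by 1.55 (SE 0.31, edgeR adjusted p 0.000617). In FA, RAS deletion lowered it by 1.80 (SE 0.33) with ERF wild type, but the change was -0.89 and not called without replicate 2 of the reference line. Without replicate 1 of that group other values became calls: the rise in the reference line (0.60 to 1.14, edgeR adjusted p 0.00336), the label difference with RAS present (-0.74 to -1.27, edgeR adjusted p 0.0268), and the interactions of RAS with label (0.70 to 1.23) and with medium (-1.05 to -1.58). The interaction of medium and label went from 0.94 to 1.84, a call, without replicate 2. Under the label the change was -1.09 (SE 0.30), and -1 and not called without RAS deleted replicate 2. By label in 2iL it was -1.69 (SE 0.31, edgeR adjusted p 0.000726) with RAS present and -1.01 (SE 0.32) with RAS deleted, and the latter was lost without wild type replicate 3 (-0.76) or knockout replicate 2 (-0.90).

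H13, which encodes signal peptide peptidase, had 10.6, 11 and 11.1 CPM in 2iL and 22.8, 23.1 and 20.3 CPM in FA under the knockout label with RAS deleted, its single call (1.01, SE 0.13). That value dropped to 0.99, 0.98 and 0.97 without replicate 1 in 2iL, replicate 1 in FA and replicate 2 in FA, and to 0.96 with the length offset. Its FA libraries had 24.3 and 20.7 CPM in the reference line, 13.3, 15.1 and 15 CPM with ERF wild type and RAS deleted, and 14.1 to 21.2 CPM under the label with RAS present, and all other 2iL libraries 9.56 to 14.9 CPM.

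Zrsr1, a splicing factor-like gene within Commd1, was called in 1 comparison, lower by label in FA with RAS deleted (-1.22, SE 0.28, edgeR adjusted p 0.00212). There it had 12.1, 10.7 and 21.4 CPM, against 37.5, 32.0 and 33.3 CPM with ERF wild type. In FA with RAS present it had 18.9 and 25.8 CPM with ERF wild type and 17.6, 15.7 and 26.6 CPM under the label. In 2iL it had 29.1 to 34.5 CPM with ERF wild type and 13.1 to 27.5 CPM under the label, without overlap but not called. Nap1l5, a nucleosome assembly gene at 0 to 2.41 CPM, was called higher with RAS deletion in FA with ERF wild type (2.13, SE 0.81, edgeR adjusted p 0.0408), but not without replicate 1 or 2 of the RAS present group (1.81 and 2.51) or replicate 3 of the RAS deleted group (1.74).

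Of the members never called, Impact, an inhibitor of the kinase GCN2, ran from 65.6 to 119 CPM, Slc38a4, an amino acid transporter gene, from 138 to 350 CPM, Inpp5f, a phosphoinositide phosphatase gene, from 12.9 to 29.5 CPM, and Commd1, a gene of copper handling, from 15.2 to 42 CPM. Several of them passed the adjusted p between FA and 2iL with changes under 2-fold. In the order of the 4 lines used above the log2 differences were -0.84, -0.24, -0.87 and -0.88 for Slc38a4, -0.80, -0.29, -0.50 and -0.91 for Cd81, and -0.43, -0.49, -0.59 and -0.89 for Commd1, all past it. Without FA replicate 2 the first values of Slc38a4 and Cd81 were -1.02 and -1.11, both called, and without 2iL replicate 3 the last of Commd1 was -1.03. Inpp5f had 0.78, 0.11, 0.81 and 0.61, of which the second did not pass. Peg13, a noncoding RNA, ran from 0.784 to 3.49 CPM and Mcts2 from 6.97 to 10.9 CPM.

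By the parental copy that is expressed, as textbooks give it, the kept members comprise 24 paternal and 17 maternal genes and Gnas, which has transcripts of both kinds. In the reference line 13 paternal genes rose and 3 fell in FA, with a median log2 change of 1.08, and 4 maternal genes rose and 0 fell, with a median of 0.44, where 13.2% of all genes rose and 10.8% fell. With ERF wild type and RAS deleted 10 paternal genes rose and 0 fell (median 0.91), and 2 maternal genes rose and 2 fell (median -0.26), against 9.96% and 6.59% of all genes. Under the knockout label 8 paternal genes rose and 2 fell with RAS present and 10 rose and 2 fell with RAS deleted, and 5 maternal genes rose and 1 fell and 6 rose and 2 fell, against 12.3% and 7.46% of all genes with RAS present and 14.5% and 10.4% with RAS deleted. The difference between the parental classes was not tested.

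The genes that set or protect imprints were followed as a list of 15. In the reference line the DNA methyltransferase genes Dnmt3a and Dnmt3b and their cofactor gene Dnmt3l rose in FA, by 2.50 (SE 0.13), 3.09 (SE 0.32) and 6.43 (SE 0.34). Zfp57, whose product protects imprints, fell by 1.96 (SE 0.11) and Dppa3 by 2.84 (SE 0.27). These 5 were the calls among the 15, where 24% of all genes were called, and the list's median log2 change was -0.04. The 3 methyltransferase genes were called higher in FA in all 4 lines. Zfp57 was also called lower in FA in both lines labelled ERF knockout, but not with ERF wild type and RAS deleted. Dppa3 was also called lower with ERF wild type and RAS deleted. Under the knockout label, however, Dppa3 was called higher in FA with RAS present and was not called with RAS deleted. RAS deletion in FA with ERF wild type raised Zfp57 by 1.67 (SE 0.11) and Dppa3 by 2.39 (SE 0.26) and lowered Dnmt3b by 1.93 (SE 0.31), against 17.3% of all genes called. In the knockout-labelled line Dppa3 was lower by 1.52 (SE 0.27) and no other gene of the list was called, against 6.88% of all genes. RAS deletion in 2iL changed 0 of 15 in either line, against 1.2% and 0.211%.

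A second list held 32 other imprinted genes, of which 27 were tested. In the reference line 9 rose and 4 fell in FA, against 24% of all genes. RAS deletion in 2iL changed 0 in either line, against 1.2% and 0.211% of all genes. In FA 5 rose and 8 fell with ERF wild type, against 17.3%, and 3 rose and 0 fell under the knockout label, against 6.88%. Those lower with ERF wild type included 5 that lie near Peg10 on chromosome 6. Their log2 changes were -4.59 (SE 0.24) for Pon2, a paraoxonase gene, -4.09 (SE 0.55) for Asb4, -3.25 (SE 0.30) for Pon3, -1.89 (SE 0.61) for Calcr, the calcitonin receptor gene, and -1.62 (SE 0.12) for Ppp1r9a. None of the 5 was called for RAS deletion under the knockout label, and the interaction was called for each of them, from 1.70 (SE 0.16) for Ppp1r9a to 4.09 (SE 0.30) for Pon2. The 5 were picked for their fall with ERF wild type, a choice that itself favours a positive interaction. By label in FA with RAS deleted 8 were higher and 5 lower, against 16.6% of all genes called, and with RAS present 0 were called, against 2.36%.

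The difference between RAS effects in the 2 ERF lines was tested for every gene as an interaction in FA. Of 42 members 14 were called, against 13.7% of all genes (6.29% higher and 7.42% lower): the RAS effect was more positive under the knockout label for Meg3, Rian, Mirg, Dlk1, Peg10, Sgce, Mest, Phlda2 and Nnat, and more negative for Dio3, Usp29, Zim1, Plagl1 and Ascl2. The interaction of medium and ERF label with RAS present called 5 members, against 4.27% of all genes (2.22% and 2.05%). These were H19, Peg10, Sgce, Mest and Nnat, each with a smaller rise in FA under the knockout label. That count was 3 without FA replicate 1 of the reference line. Usp29 had the other sign at 1.22, which was not called here but was called by DESeq2 (1.24, adjusted p 0.0206) and with RLE scaling (1.23). Peg3, at -1.08, became a call with no other groups in the model (-1.09, edgeR adjusted p 0.047). The interaction of medium and RAS with ERF wild type called 8, against 11.9% (6.6% higher and 5.3% lower): Dio3, Plagl1, Peg12, Ascl2 and Nap1l5 were more positive with RAS deleted, and Mirg, Peg10 and Phlda2 more negative. With the length offset the interactions of RAS and ERF for Zim1 (-1.38) and Ascl2 (-1.01), of medium and label for Sgce (-1.21) and of medium and RAS for Mirg (-1.05) were not called.

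Replicate numbers carried a pattern that was chosen after its values were seen. Within the 4 groups labelled ERF knockout, 10 of 42 members, or 23.8%, had their lowest library at the same replicate number in every group, which 7.95% of all genes tested did. Replicate 1 was lowest for Igf2r, Meg3, Phlda2 and Impact, replicate 2 for Peg13, Nap1l5 and Zrsr1, and replicate 3 for Usp29, Plagl1 and Ndn. The same number was highest in every group for 2 members, or 4.76%, against 7.29% of all genes. Nap1l5 had 1, 1, 0 and 2 counts in the replicate 2 libraries and 4 to 26 in the other 8. The labels do not say what a replicate number marks.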

How the data were processed

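RNA was measured in 23 libraries of 8 groups, from ribosomal RNA-depleted total RNA in a strand-marking library, sequenced as paired 75-base reads, per the labels' protocols. The authors deposited expected counts per gene, rounded to whole numbers in the matrix used here, and TPM and effective length per gene in a file per library. These were made with bcl2fastq 2.20.0, fastp 0.20.0 and Salmon on mm10, per the submitters' processing notes; the Salmon version, the transcript set and the strand setting are not given in the sources used here. Estimated counts split reads among overlapping genes and near-identical copies, so such genes are uncertain.

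From the matrix, edgeR 4.0.16 in R 4.3.3 fitted 1 model with TMM scaling, filterByExpr and robust quasi-likelihood tests over all 23 libraries, which thus share an estimate of spread. The 12 comparisons and 3 interactions were adjusted by the Benjamini-Hochberg method over 20372 genes, and a call needs an adjusted p under 0.05 and at least 2-fold. SE is the log2 fold change over the root of its F statistic. CPM is scaled by TMM, and TPM is as deposited. limma 3.58.1, DESeq2 1.42.0 and pandas 2.3.3 were also used, and the fit was tested on simulated data. Total counts of 16.2 to 29.9 M (median 22 M) limit genes of few counts. Replicates of a group differed by more than sampling noise, with a chi-square per degree of freedom of 3.04 to 44.9 over 22 pairs.

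Replicate numbers come from the titles, which do not say what they mark. They were taken to pair libraries where every pair's deviations correlated above 0.1, which held for 5 comparisons: FA against 2iL in 3 lines (0.313, 0.106 and 0.13 with ERF wild type and RAS deleted, 0.146, 0.163 and 0.268 under the knockout label with RAS present, 0.168, 0.103 and 0.167 with RAS deleted) and RAS deletion in 2iL (0.38, 0.175 and 0.221 with ERF wild type, 0.298, 0.186 and 0.345 under the knockout label). Alternatives were RLE scaling, DESeq2, no count filter, no fold minimum, an effective length offset, only the groups compared, the replicate block, each library left out, and, chosen after seeing the data, 4 libraries left out. Members called in at least 1 comparison whose highest group mean was at least 5 CPM are given by library, except groups given as a range, and the others by range. The members and lists were chosen with earlier results of these data known. Loci are from GENCODE M21 on GRCm38. 1 more targeted gene was left out of the text.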

Additional observations from a re-analysis of the deposited data

Results flagged for a closer look

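The RAS effect in FA differed between the ERF labels, by an interaction term in edgeR, for 14 members. The differences, knockout label minus wild type on the log2 scale, were 3.30 for Phlda2, 2.86 for Peg10, 2.22 for Dlk1, 1.76 for Mirg, 1.68 for Rian, 1.45 for Nnat, 1.41 for Sgce, 1.37 for Meg3 and 1.33 for Mest. They were -4.49 for Dio3, -2.60 for Plagl1, -1.30 for Usp29, -1.24 for Ascl2 and -1.15 for Zim1. The calls of Nnat (1.07) and Ascl2 (-0.92) were lost without replicate 1 of the reference line in FA. That of Zim1 was lost in 8 of the fits that left out 1 library: both libraries of ERF wild type with RAS present (-1.20 and -1.14), replicate 2 of ERF wild type with RAS deleted (-0.97), replicates 2 and 3 of the knockout label with RAS present (-1.10 and -1.04) and replicates 1, 2 and 3 with RAS deleted (-1.19, -1.13 and -1.15).

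The change from 2iL to FA with RAS present differed between the ERF labels for 5 members: -6.62 for H19, -2.09 for Nnat, -1.68 for Peg10, -1.42 for Mest and -1.18 for Sgce. The call of Nnat was lost without FA replicate 1 of ERF wild type (-1.72). That of Sgce was lost when any library other than 2iL replicate 1 of ERF wild type was left out, at values from -0.94 to -1.37, and was -1.80 without that library.

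With ERF wild type the change from 2iL to FA differed by RAS state for 8 members: 4.28 for Plagl1, 3.09 for Nap1l5, 3.00 for Dio3, 1.49 for Peg12, 1.34 for Ascl2, -1.02 for Mirg, -2.92 for Phlda2 and -3.52 for Peg10. The call of Ascl2 was lost without FA replicate 1 of RAS present (1.00). That of Mirg was lost in 7 of 11 fits with 1 library left out (-0.76 to -1.02), namely without RAS present replicates 1 and 2 in 2iL and 1 in FA, or RAS deleted replicates 2 and 3 in 2iL and 1 and 2 in FA. That of Nap1l5 was also lost in 7 of 11 (2.70 to 3.47), namely without RAS present replicates 1 and 3 in 2iL and 1 and 2 in FA, or RAS deleted replicates 2 and 3 in 2iL and 3 in FA.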

How the results depend on the processing

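Over the 158 calls of members, RLE scaling and DESeq2 lost 0 that they could test, no count filter lost 2, only the groups compared 8, the replicate block 11 and the effective length offset 12, and no call reversed in these fits. Leaving out 1 library lost 106 refitted calls and kept 939, and leaving out the 4 libraries with raised chromosome 8 genes lost 23. In the other direction 61 differences of members that are not called in the text were called in at least 1 alternative with the fold minimum kept: 46 when 1 library was left out, 19 with no count filter, 15 with the replicate block, 12 without the 4 libraries, 6 each with DESeq2 and with only the groups compared, and 2 each with RLE scaling and the effective length offset. With no fold minimum the members called numbered 33, 24, 29 and 31 for FA against 2iL (order as in the text), 5 and 20 for RAS deletion in 2iL and FA with ERF wild type, 15 in FA under the knockout label, 13 for the label in FA with RAS present, 20 and 24 for the label with RAS deleted in 2iL and FA, and 14 for the interaction of medium and RAS. The shares of all genes given in the text hold for calls with the 2-fold minimum and cannot be set beside these counts. The share of all genes without the fold minimum is not given here. The 1 call for RAS deletion in 2iL with ERF wild type became 0 with the effective length offset, with only the groups compared, with the replicate block and without the 4 libraries. The 0 calls under the knockout label became 1, H19, with no count filter and with the replicate block. The label count of 6 in FA with RAS present became 3 with only the groups compared. The cause was not tested.

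Leaving out 1 library gave 16 to 24, 13 to 16, 15 to 17 and 17 to 19 members for FA against 2iL, 0 to 2, 10 to 14, 0 to 0 and 4 to 9 for RAS deletion (ERF wild type in 2iL and FA, then the knockout label), 8 to 9, 4 to 6, 9 to 12 and 13 to 16 for the label (RAS present in 2iL and FA, then RAS deleted), and 13 to 15, 3 to 6 and 6 to 9 for the interactions.

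With the replicate block in the 5 comparisons where numbers paired the libraries, the counts were 15, 16, 19, 0 and 1, and the changed calls stand in the text. In the others the libraries share only a number, and the block gave 19 for FA against 2iL in the reference line, 13 and 9 for RAS deletion in FA, 10, 4, 10 and 14 for the label and 15, 5 and 9 for the interactions. Genes of few counts, such as Airn and Nap1l5, are limited by depth.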

Other observations

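Dppa3, from the list of genes that set or protect imprints, was lower under the ERF knockout label in 2iL, with log2 differences of -4.2 (SE 0.26) with RAS present and -5.2 (SE 0.27) with RAS deleted, and in FA with RAS deleted (-3.74, SE 0.25). It was not called in FA with RAS present. Among the other imprinted genes Kcnq1, which overlaps Kcnq1ot1 on the other strand, was higher under the label in 2iL, by 2.41 (SE 0.46) and 2.66 (SE 0.49), while Kcnq1ot1 differed by -0.68 (SE 0.22) and -1.42 (SE 0.22).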
